A study of Mus musculus with 19 samples.

Results

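The Ifi200 genes code for a family of interferon-inducible proteins, several of which bind DNA. They were read here through the sequence variants called in the exome and the RNA of A223 cells. A call belonged to the set if its gene label began with Ifi20 or was Mnda, Mndal, Aim2 or Pyhin1. This rule, which uses no measured value, took 952 of 564674 calls (0.169%). They carry the labels of 8 genes, and 3 calls lie between genes under a joint label of Ifi203 and Ifi202b. A223 is a mouse squamous cell carcinoma whose strain is labelled C57BL/6-derived. The cells were grown in culture and gave 1 exome library of genomic DNA and 1 library of polyA RNA. No treatment, clone history or untreated partner is given for them, and no germline sample was analysed here. The rest of the series reads T cells of tumour-bearing mice and was not used.

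With 1 library of each kind there is no spread between replicates and no test. Shares are given with exact Clopper-Pearson 95% intervals, which cover counting error only. Neighbouring calls of 1 haplotype are not independent, so these intervals are too narrow. Each call has a genotype in the exome and in the RNA. Heterozygous means that the reference base and the variant were both called, and homozygous means that the variant alone was called. The number of RNA reads over the position is given for every call. Exome depth and the reads of each allele were not used here. A position with RNA reads and no RNA call may have shown the reference base or may have been filtered, and the table does not separate these.

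Proteins of the family join a pyrin domain, which binds other pyrin domains, to HIN domains, which bind DNA. Aim2 is the cytosolic DNA receptor that assembles an inflammasome with Pycard and caspase-1. Ifi204 codes p204, a mouse protein known to bind foreign DNA upstream of Sting. Ifi202b codes p202, which has HIN domains and no pyrin domain and is known to hold back the Aim2 inflammasome. It is also known from mouse genetics as a gene whose level differs between inbred strains. Ifi205 codes p205, known in mouse macrophages to influence the expression of Pycard. The family genes lie side by side on chromosome 1 and resemble each other in sequence.

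Short stretches from the start regions of some of these genes are given here. They were picked for shared letters, so part of their likeness follows from that choice. The stretches below are those in which the letters GAAANNGAAA, the core of the interferon-stimulated response element, were found on the gene's own strand before the annotated start, at 25 to 27 bases in 3 genes and at 124 bases in Ifi205. Matches on the other strand, in Mndal and Ifi205, are not shown. They were read from the RefSeq start windows of GRCm38.p6, which run from 250 bases before to 50 bases after the start. All are on the minus strand of chromosome 1, and capitals mark the matched letters. RefSeq uses the symbol Ifi211 for the gene labelled Mnda.
Mndal, chr1:173880204-173880233: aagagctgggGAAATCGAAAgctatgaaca
Ifi203, chr1:173942508-173942537: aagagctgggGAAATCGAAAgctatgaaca
Ifi211, chr1:173913064-173913093: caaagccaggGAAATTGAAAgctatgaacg
Ifi205, chr1:174031870-174031899: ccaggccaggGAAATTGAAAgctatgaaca

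The stretches of Mndal and Ifi203 are identical over all 30 bases. On either strand, the letters occurred in a window of 4 of the 7 member genes for which a window was given. They were in 3.44% of all 32851 windows and in a window of 3.99% of 27025 genes. The windows of Ifi202b, Aim2 and Pyhin1 did not hold them, and no window was given for Ifi204. They were also found in a window of 4 of 4 further family genes that the table lists under other symbols (BC094916, Pydc4, Pydc3 and AI607873). A match describes letters only. In the Ifi202b window the table has a call 165 bases before the start, at position 173983009. The reference base at that position is in capitals, and the variant base is not shown.
Ifi202b, chr1:173982994-173983023: tgtccatgtctgaaCttgtacctgtcatga
That position was called homozygous for the variant in RNA at 20 reads and was not called in the exome.

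The members span positions 173346309 to 174031553 of chromosome 1, which is 0.685 Mb. That span held 1599 calls of all genes, or 2333 per Mb, against 209 per Mb over chromosome 1. Among 5 Mb windows of the chromosome, the one that holds the cluster had the most calls, 6070, against a median of 711 over 40 windows. Ifi204 had 304 calls, Ifi202b 166, Ifi203 163, Mndal 134, Pyhin1 93, Ifi205 66, Mnda 14 and Aim2 9. Calls labelled intronic made up 582 of the 952 (61.1%), against 48.3% in the whole table. Calls labelled downstream of a gene made up 157 (16.5%, against 11.1%), and the 3′ untranslated region held 54 (5.67%, against 3.37%). The downstream label does not place a call past the gene. Ifi203 had 98 such calls and Ifi204 48, yet 160 of 163 Ifi203 calls and 303 of 304 Ifi204 calls lay within the RefSeq bounds of their gene. Missense calls took 7.25% of the members, against 1.51% of the whole table.

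Exome calls numbered 384 and RNA calls 732, with 164 positions called in both. Another 568 calls (59.7%) were made in RNA only, against 62.8% of all calls in the table. Of these RNA-only member calls, 139 had under 5 reads and 76 had 20 or more. Over all members the median was 7.0 RNA reads at a called position, with a range of 0 to 179, and over the whole table it was 5.0. At coding positions of the members the median was 33.0 reads.

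**Figure D1:**
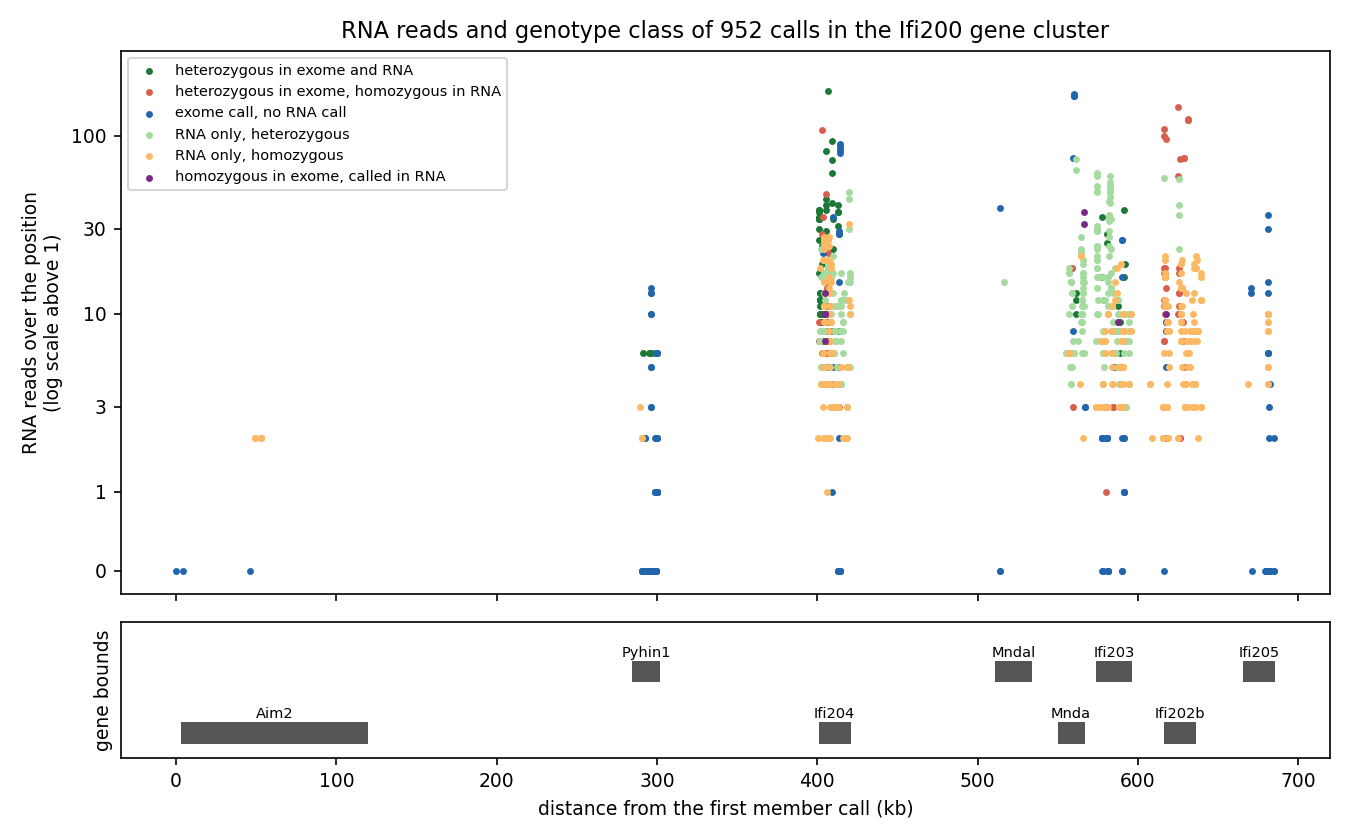
Each point is 1 of the 952 calls, placed by its distance from the first member call in kb and by the number of RNA reads over it, on a log scale above 1 read. Colours give the genotype class, and bars under the plot give the RefSeq bounds of the genes; the calls at Aim2 and most of those at Pyhin1 lie at or near 0 reads, while calls at Ifi204, Mnda and Ifi202b reach 179, 171 and 144 reads.

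The exome read most of the cluster as heterozygous. Of the 384 exome calls, 360 were heterozygous and 24 homozygous, a homozygous share of 6.25% (4.05 to 9.16%). Over all exome calls of the table the homozygous share was 59.8%, and on the rest of chromosome 1 it was 48.4%. The neighbours of the cluster shared part of this pattern, with 164 of 1048 exome calls homozygous within 0.5 Mb (15.6%, 13.5 to 18.0%). The 4 further family genes had 26 homozygous calls of 330 (7.88%, 5.21 to 11.3%), an interval that overlaps that of the members. None of the 84 coding exome calls in member genes was homozygous.

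All 24 homozygous calls lay outside the coding sequence. Ifi204 held 5 of them, all in an intron between positions 173750847 and 173750934, and in RNA 4 of these were called heterozygous at 10 to 13 reads and 1 homozygous at 7 reads. Pyhin1 held 6 and Ifi205 4, all intronic, with 0 to 2 RNA reads. Mnda held 4, all in its 5′ untranslated region, out of 10 exome calls of the gene. Aim2 held 2, out of 3 exome calls of the gene, and Mndal, Ifi203 and Ifi202b held 1 each. At 2 of the Mnda positions the RNA was heterozygous, with 37 and 32 reads, and at the other 2 it had 3 reads and no call.

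Changes of the protein outnumbered silent ones. Of 113 coding member calls, 75 were protein-changing and 38 synonymous, a share of 66.4% (56.9 to 75%), against 47.1% of the 25572 coding calls of the table. That is 1.97 protein-changing calls per synonymous call in the members and 0.891 in the whole table. With exome calls alone the share was 64.3% (53.1 to 74.4%) in the members, against 40.7% in the table. The other genes within 0.5 Mb had 36.8% (31.0 to 42.9%), while the 4 further family genes had 77.1% (68.5 to 84.3%). The protein-changing calls comprised 69 missense, 2 missense next to a splice site, 2 frameshift, 1 in-frame deletion and 1 loss of the start codon. Ifi203 had 26 protein-changing and 9 synonymous calls, Ifi204 19 and 15, Pyhin1 12 and 6, Ifi202b 9 and 1, Ifi205 5 and 2, Mnda 3 and 4, and Mndal 1 and 1. Aim2 had no coding call.

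**Figure D2:**
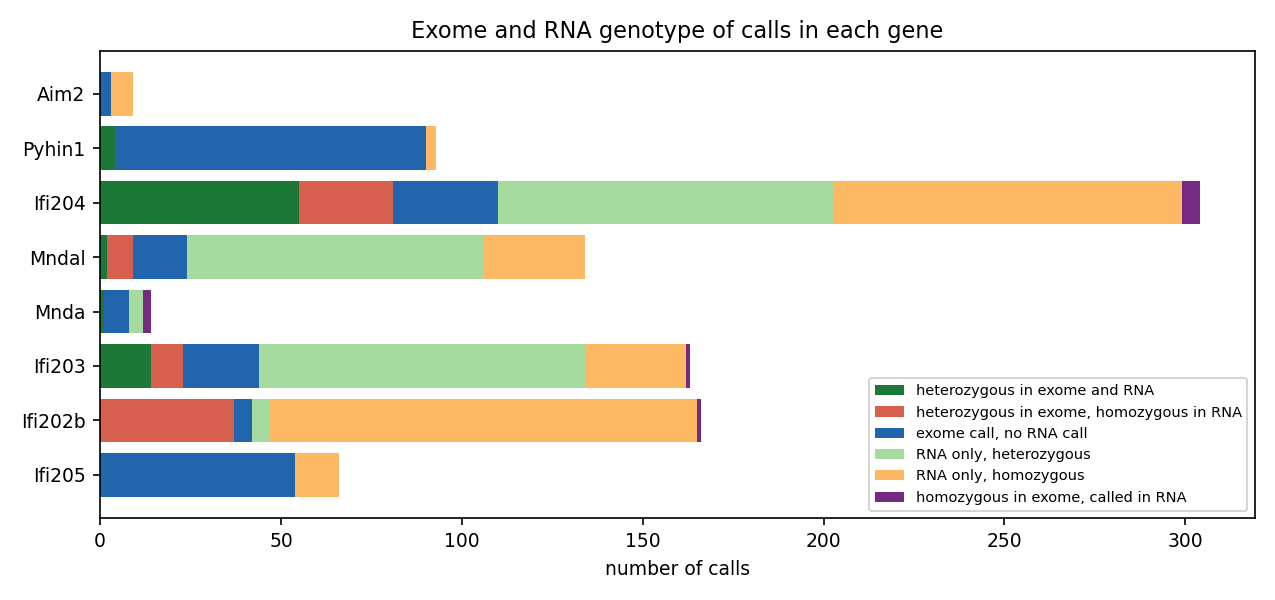
Stacked bars give the number of calls in each of the 8 genes by the genotype pair of exome and RNA. Ifi202b has no call that is heterozygous in both libraries and 37 that are heterozygous in the exome and homozygous in RNA, whereas Ifi204 has 55 and 26 such calls.

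The RNA did not follow the heterozygous exome everywhere. Of 66 member calls that were heterozygous in the exome and had 20 or more RNA reads, 30 were heterozygous in RNA, 16 homozygous and 20 not called. The homozygous share was thus 24.2% (14.5 to 36.4%), against 10.7% over the table. The uncalled share was 30.3%, against 34.6% over the table. Over all exome calls with 20 or more RNA reads, 30 of 68 member calls had the same genotype in RNA (44.1%, 32.1 to 56.7%), against 63.7% in the table. Of these 68 calls 66 were heterozygous in the exome, against 8740 of 14310 in the table, so these shares rest on unlike mixes of genotypes. Among heterozygous exome calls alone, 30 of 66 member calls were heterozygous in RNA, against 4780 of 8740 in the table. The genes divided sharply behind these sums.

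Ifi202b stood at one end. All 11 of its heterozygous exome calls with 20 or more RNA reads were homozygous in RNA. At 10 or more reads this held for 28 of 28 calls, against 9.07% over the table. At 5 or more reads it held for 35 of 38, against 9.40%, and the other 3 had no RNA call. At 1 or more reads it held for 37 of 41, against 11.2%, and no call was heterozygous in RNA.

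In its coding sequence, p202 had 10 calls, each heterozygous in the exome and homozygous in RNA. Residues are counted from 1 at the start methionine, with the reference residue first. Exon 2 of 7 carried Glu13Asp and Phe14Leu at 122 reads each and Ser15Ala at 124 reads, within positions 173977342 to 173977346. Exon 3 carried the neighbouring changes Ile141Met and Ile142Phe at 75 reads each. Exon 4 carried Lys204Glu at 74 reads. Exon 5 carried the synonymous Val297Val at 59 reads and Leu350Pro at 144 reads. Exon 6 carried Thr379Ser at 8 reads and Ser432Ala at 96 reads. The calls thus ran from near the first residue to near the last of 445, in 5 exons, and RNA depth over 9 of them was 59 or more.

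**Figure D3:**
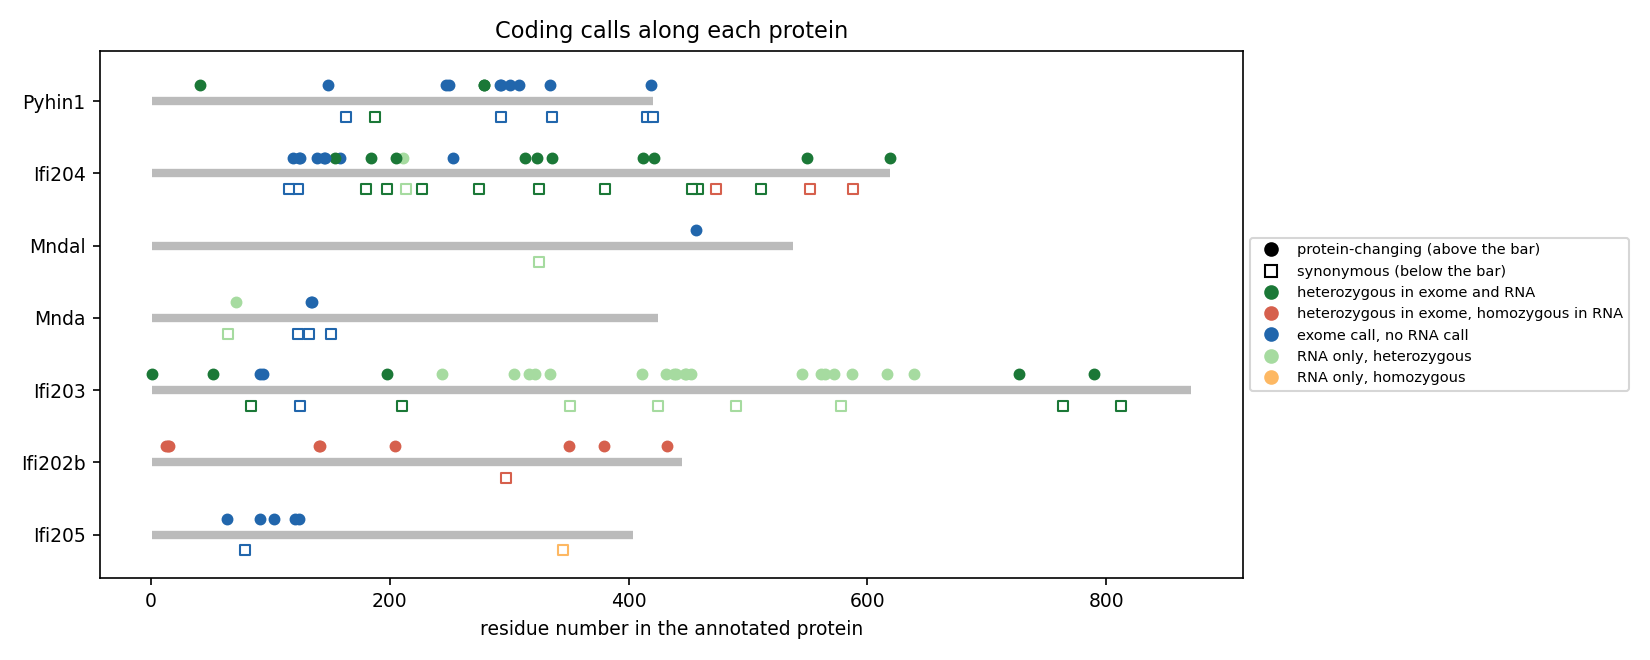
Marks give the coding calls along each annotated protein by residue number, with protein-changing calls above the bar, synonymous calls below it and colours for the genotype class. All 10 marks of Ifi202b are of the class heterozygous in the exome and homozygous in RNA, the middle stretch of Ifi203 is called in RNA only, and the Pyhin1, Mnda and Ifi205 marks are mostly exome calls with no RNA call.

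Ifi202b was next read over all its RNA calls, with or without an exome call. Of its 123 RNA-only calls of any kind, 118 were homozygous. All 135 single-base RNA calls labelled Ifi202b were homozygous (100%, 97.3 to 100%), against 65.2% of single-base RNA calls in the table. Low depth favours a homozygous call, since few reads can miss an allele, so the calls were divided by depth. With 2 to 4 reads 33 of 33 were homozygous, with 5 to 9 reads 37 of 37, with 10 to 19 reads 49 of 49, and with 20 or more reads 16 of 16 (79.4 to 100%). These 16 include the 11 heterozygous exome calls already given at that depth. Over the table the homozygous share was 90.0% at 2 to 4 reads and 58.0% at 20 or more. At 20 or more reads, other gene labels of the cluster had 16 homozygous of 49 for Ifi204 (32.7%, 19.9 to 47.5%), 0 of 38 for Ifi203 (0 to 9.25%) and 1 of 6 for Mndal. All 6 Mndal-labelled calls lay within the RefSeq bounds of Ifi211, the gene labelled Mnda, and not of Mndal. Linked calls of 1 gene in 1 library are not independent, so these intervals do not test a difference between genes.

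**Figure D4:**
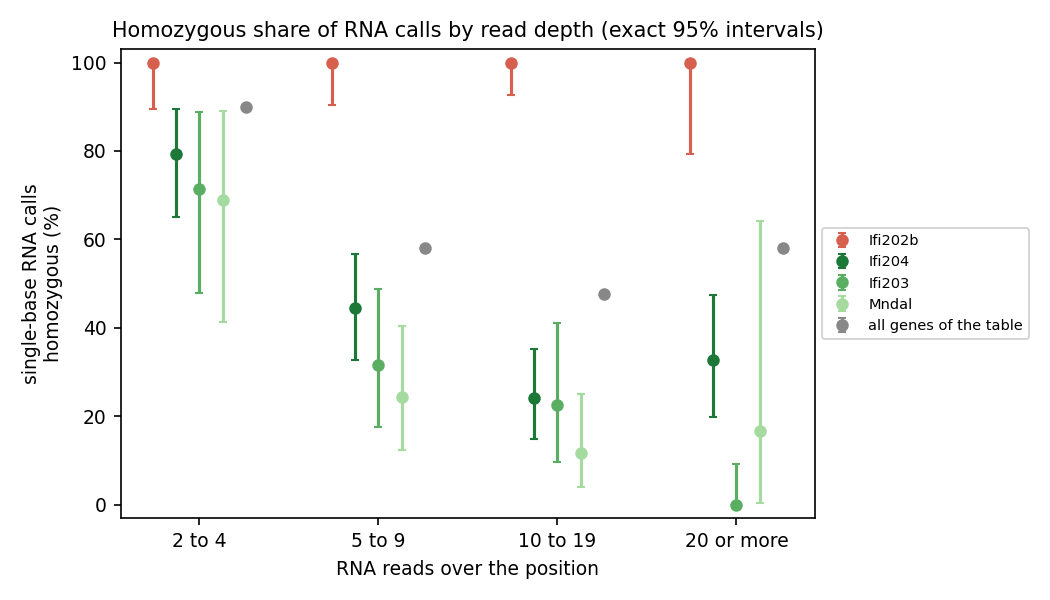
Points give the homozygous share of single-base RNA calls in percent by the number of RNA reads over the position, with exact 95% intervals, for Ifi202b, Ifi204, Ifi203, Mndal and all genes of the table. Ifi202b is at 100% in every depth class, while calls labelled Ifi204, Ifi203 and Mndal lie at 32.7%, 0% and 16.7% at 20 or more reads.

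Heterozygous RNA calls were not wholly missing from Ifi202b. There were 5, all insertions of 3 to 60 bases in introns or next to splice sites, with 23 to 58 reads and no exome call. The longest stood at position 173962825 with 58 reads, and the other 4 stood within a few bases of each other, at 173971759, 173971761, 173971763 and 173971767.

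Homozygous RNA calls were also followed beyond the gene. Taking single-base RNA calls with 10 or more reads in order along the chromosome, 73 consecutive calls were homozygous, from position 173942073 to 173996183. They span 54.1 kb, and 65 of them carry the label Ifi202b, 7 that of a neighbouring gene model and 1 that of Mndal. The left end rests on that 1 call, at 10 reads and within the RefSeq bounds of Ifi203. The first run call labelled Ifi202b stands only at 173962767, so the stretch before it is thinly read. In the exome, 27 of the 73 were called heterozygous. At that depth the nearest heterozygous calls on either side stood at 173942025 with 10 reads and at 173996196 with 25 reads. With calls of any depth, the span held 152 homozygous single-base RNA calls and 1 heterozygous one, labelled Mndal, at 173942106 with 8 reads near its left end.

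Other genes of the table were ranked on a related measure, which leaves out positions with no RNA call. On it, 15.3% of all such calls of the table at 5 or more reads were homozygous in RNA. Among 116 genes with at least 20 heterozygous exome calls that were also called in RNA at 5 or more reads, the median gene had 3.23% of them homozygous in RNA, and 50 genes had none. In 7 genes every such call was homozygous in RNA. They were Ifi202b with 35 of 35, Klra5 with 113 of 113, Klra17 with 65 of 65, Klra6 with 25 of 25, Fn1 with 24 of 24, the X-linked Huwe1 with 20 of 20 and a joint label of Gm4924 and Gm1553 with 51 of 51. Klra genes are, like the Ifi200 genes, a family of near copies, whereas Fn1, on the same chromosome as Ifi202b, codes fibronectin. Ifi204 had 22 of 77 (28.6%).

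Reads of near-identical family members can be placed on the wrong gene in either library, so each call within the family carries this uncertainty. Its part in the Ifi202b pattern was not tested.

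Ifi204, the gene of the DNA sensor p204, was mostly heterozygous in both libraries. Of its 41 heterozygous exome calls with 20 or more RNA reads, 26 were heterozygous in RNA, 5 homozygous and 10 not called. The position with the most RNA reads of all members was the synonymous Cys380Cys in exon 6 of 9, heterozygous in both at 179 reads. Missense calls heterozygous in both included Glu313Lys at 93 reads, Asn323Ser at 73, Ser336Ala at 42, Glu421Asp at 41, Pro184His and Ser205Leu at 37 each, Ile412Thr at 29 and Lys619Arg, in the last residue, at 17. In exon 8 both coding calls, the synonymous Leu588Leu at 107 reads and Thr552Thr at 28 reads, were homozygous in RNA. The remaining 3 homozygous ones were Thr473Thr at 47 reads and 2 intronic calls at 35 and 22 reads. Asn549Ile was heterozygous in both at 10 reads, while Leu253Phe at 35 reads and Ile158Ser at 15 had no RNA call. Ser211Pro, at 17 reads, and Gln214Gln, at 21 reads, were called heterozygous in RNA only.

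Exon 3 of Ifi204 differed from the rest of the gene. It had 9 coding exome calls, all heterozygous, and 8 of them had no RNA call. Arg119Gly had 90 reads, Ala116Ala 89, Ser123Ser 85, Ala124Thr 82 and Thr125Ala 80. Only Gln154Lys, at 8 reads, was heterozygous in RNA. The remaining 3 were deletions next to each other, Ala146del of 3 bases at 29 reads, and Thr145fs of 1 base and Ala139fs of 17 bases at 28 reads each. They are shown on the plus strand with the deleted bases in capitals, since they are the coding deletions of the set, 2 of them frameshifts, and adjoin each other.
Ifi204 exon 3, chr1:173760153-173760176: gAGCtGtGGAAGTCCTCGCCTGAG
The deleted bases sum to 21, which would keep the reading frame if all were on 1 copy. The table gives no phase, so whether they are was not tested.

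Ifi203, which codes p203, showed another pattern. In exon 7 of 10 it had 23 coding calls between positions 173928300 and 173929485, all called heterozygous in RNA only, at 14 to 59 reads, and 19 of them changed the protein. These ran from Ser244Ile to Glu639Ala and included Ala431Glu at 55 reads, Ala411Glu and Ile440Thr at 50, and Pro438His, Ile448Val and Gln452Arg at 49 each. Asn447Ser had 48 reads, Asn545Ser 43 and Phe334Ile 42. The other 8, from Ile304Ser at 17 reads to Pro564Thr at 36, were Leu317Pro, Asn322Ser, Glu561Lys, Thr572Ser, Ser587Gly and Arg616Ser besides these. The exome had no call in that exon. Whether the exome covered the exon could not be read from the table. In the other exons, 9 of 12 coding calls were heterozygous in both libraries. One was the loss of the start codon in the annotated transcript, Met1? at position 173938005, with 19 reads. Others were Ile52Met at 38 reads, Ile727Val at 28, Arg790Lys at 16 and Arg198Gln at 11. In exon 4 the 3 calls Lys91Glu, Glu94Lys and Val125Val had 26, 26 and 16 RNA reads and no RNA call.

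The remaining genes gave fewer covered calls. Mnda, the RefSeq Ifi211, had in exon 3 of 7 the calls Gly135Arg at 170 reads, Ala134Val at 168, and the synonymous Ala132Ala at 168, Ser123Ser at 171 and Ser151Ser at 75. All 5 were heterozygous in the exome and none was called in RNA. In exon 2 it had Glu71Asp at 64 reads and Leu65Leu at 74 reads, heterozygous in RNA and not called in the exome. Ifi205 had 4 missense exome calls in exon 3, Ser103Gly at 36 reads, Glu91Gly at 30, Lys121Glu at 15 and Thr124Ala at 13, all with no RNA call. Its other missense call, Arg64Lys, had 2 reads. The 12 RNA calls of Ifi205 were homozygous, and none was shared with the exome.

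The uncalled positions thus gathered in a few exons. Of the 20 member calls that were heterozygous in the exome, had 20 or more RNA reads and had no RNA call, 17 (85.0%) lay in exon 3 of Ifi204, Mnda or Ifi205 or in exon 4 of Ifi203. Their grouping by exon was made after the values were seen. The share of uncalled positions in the members, 30.3%, was close to the 34.6% of the table.

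Pyhin1 was called mainly from DNA. It had 84 heterozygous and 6 homozygous exome calls, and 51 of its positions had no RNA read. At its coding positions the RNA had 0 to 14 reads. Gln41Glu, Lys279Gln, Lys279Met and the synonymous Leu188Leu, at 6 reads each, were heterozygous in both libraries. The other missense calls, all with no RNA call, were Ala148Val, Ser247Ala, Val250Met, Val292Phe, Gly293Ser, Tyr301His, Glu308Val, Leu334Phe and Lys419Arg. Both Lys279 calls stand in 1 codon, as do Gly293Ser and Gly293Gly, so the residue given for each alone need not be the residue made. RefSeq uses the symbol Ifi209 for this gene.

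Mndal and Aim2 gave little on the protein. Of 134 calls labelled Mndal, 130 were intronic, and only 4 lay within the RefSeq bounds of Mndal, whereas 64 lay within those of Ifi203. The other 66 lay outside both, within the RefSeq bounds of Ifi211, the gene labelled Mnda. The coding calls labelled Mndal were Glu456Val, heterozygous in the exome with 39 RNA reads and no RNA call, and Pro325Pro, heterozygous in RNA only at 15 reads. Aim2 had 3 exome calls with 0 RNA reads and 6 homozygous RNA calls at 2 reads each. Nothing on the use of Aim2 by these cells can be read at that depth.

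RNA depth over coding calls ordered the genes as Mnda with a median of 168 reads, Ifi202b 85.5, Ifi204 37.5, Ifi203 33.0, Mndal 27.0, Ifi205 13.0 and Pyhin1 6.00. The ranges of Mnda (64 to 171), Ifi202b (8 to 144), Ifi204 (8 to 179) and Ifi203 (9 to 59) overlap, and Pyhin1 reaches only 14. These are reads at the few positions with a call in 1 library and are not a level of expression per gene. Of the 4 further family genes, AI607873 reached 31 reads, BC094916 6, Pydc3 4 and Pydc4 2. Around the cluster, 0 RNA reads lay over the calls of Fcer1a, Ackr1, Cadm3 and 25 olfactory receptor genes. Among cell type markers, 2 of 7 keratinocyte and carcinoma genes had RNA reads at a called position, Krt18 with up to 74 and Krt8 with up to 56. Neither had a call in an exon. Cdh1 had 0 reads at 61 positions, 15 of them in exons. Fibroblast markers had reads in 3 of 4 genes, with up to 707 in Col1a1. Blood cell markers had none in 7 genes, of which 4 had a call. Krt5, Krt14, Trp63 and Epcam had no call and so could not be read. The squamous origin given in the labels could thus not be checked on its main keratins.

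The pathway on which these sensors act was read in the same way. The list has 32 symbols of DNA sensing, its brakes and the inflammasome, with 2 genes under both an older and a newer symbol. Of the 32 symbols, 23 had a call, 10 an exome call and 4 a protein-changing call. The whole table has calls under 23793 gene labels. The same shares over all genes were not counted, so these counts cannot be read as high or low. Tlr9, the endosomal receptor for CpG DNA, had 5 heterozygous missense exome calls at 0 RNA reads (Thr325Asn, Leu378Ser, Thr573Ala, Gln579His and Thr867Ala). Rnaseh2b, a subunit of the enzyme that removes ribonucleotides from DNA, had Thr239Pro, heterozygous in the exome with 56 RNA reads and no RNA call. Xrcc5, which codes Ku80, had Asn558His, heterozygous in the exome at 0 reads. Prkdc, the kinase of the DNA-dependent protein kinase, had 4 insertion or deletion calls in RNA only, at 12 to 25 reads, each next to a splice site or across one. The gene of cGAS, listed as Mb21d1, and Pycard, the adaptor of the Aim2 inflammasome, had calls and no protein-changing one. Over the list 11 of 36 coding calls were protein-changing (30.6%), against 47.1% of all coding calls of the table.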

How the data were processed

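The deposited variant table of A223 cells gives, per the file headers, the called genotype in exome and in RNA and the RNA depth of each position as a count of reads, which the authors did not normalise. BWA and GATK are named without versions in the submitters' processing notes. Their settings, the variant filters and the genome build are not given in the sources used here. The table's reference base equalled that of RefSeq GRCm38.p6 at 3416 of 3416 calls inside gene start windows, so positions are read on that build. It was deposited under both samples, byte for byte alike, and read once. Of all calls, 34 list more than 1 depth and were left out of depth counts; none is a member.

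Calls were counted in Python 3.11.15 with pandas 2.3.3, and intervals came from scipy 1.17.1. A call was coding if it had a protein change or a synonymous one, and agreement was counted at 20 or more RNA reads. The counting was tested on simulated data. No test was made, since each group is 1 library. The members, the pathway and marker lists and the named calls (the rule names protein-changing calls of member genes) were chosen with earlier results of these data known. Synonymous calls were named where an exon is described, and 1 flanking gene is not reported here. Alternatives were other depth minimums, coding or exome calls alone, other family genes and other windows.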

Additional observations from a re-analysis of the deposited data

How the results depend on the processing

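Leaving out RNA-only calls under 20 reads, an alternative chosen after the data were examined, left 460 of the 952 member calls, whereas adding the 4 further family genes gave 1346. The homozygous exome share was 6.25%, and it was 0% for coding calls alone (0 of 84), 5.30% at 10 or more RNA reads and 7.0% with the further family genes. Agreement of exome and RNA genotypes was 44.1% at 20 reads, 38.2% at 5, 43.9% at 10 and 18.5% at 50 or more. At 50 or more reads 27 calls were left, of which 5 had the same genotype, and 11 of the 27 were in Ifi202b. The protein-changing share was 64.3% with exome calls alone and 62.8% without Ifi203; with homozygous exome calls alone it could not be given, since no coding one exists. The median RNA depth was 7.0 reads, and 33.0 at coding positions. The density was 2333 calls per Mb over the span, 1705 in the 1 Mb window, which ranked 2 of 190, and 1214 in the 5 Mb window. No paired analysis was possible because there is 1 exome and 1 RNA library and no test. RNA calls at low depth can miss an allele, and absence of an exome call cannot be told from lack of exome reads.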

Other observations

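The share of transitions was lower in the members than in the table, mainly among RNA-only calls. Transitions made up 505 of 837 single-base member calls (60.3%, 56.9 to 63.7%), against 67.7% of the table. Among exome calls the share was 64.8% (59.5 to 69.8%) in the members, against 68.2%, and among RNA-only calls it was 57.1% (52.6 to 61.6%), against 67.4%. The interval for exome calls includes the value of the table.

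Splice donor or acceptor sites were hit by 2 calls, each 0.105% of the members. Over the whole table the label of the acceptor call took 0.533%, and the longer combined label of the donor call 0.000354%. A deletion of a splice donor in a Pyhin1 transcript at position 173641435 was heterozygous in the exome, with 0 RNA reads. An insertion at a splice acceptor of Ifi203 at position 173938027 was heterozygous in RNA only, at 10 reads, close to the lost start codon at 173938005.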
